A study of Mus musculus with 5 samples.

Results

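Eph receptors are the cell-surface tyrosine kinases that bind ephrins on neighbouring cells, and 10 of these genes were followed here across 5 libraries of mouse embryonic fibroblasts (MEFs, connective-tissue cells cultured from embryos). The 10 genes are 7 receptors (Epha2, Epha3, Epha4, Epha7, Ephb2, Ephb3 and Ephb4) and 3 ligands (Efna5, Efnb1 and Efnb2), taken by symbol out of 21372 symbols carried by single-gene loci. Each was found at 1 locus, and none lay in a locus that joins several genes. They were chosen by their scaled levels across these same 5 libraries, so their levels are a description and carry no test. The fibroblasts came from E14.5 embryos and were at passage 30, on a C57BL/6 background per the labels. Of the lines, 4 carried the Prep1-hypomorphic genotype. Prep1, encoded by Pknox1, is a homeobox transcription factor of the TALE class, as is Meis1. The hypomorphic lines were labelled as overexpressing Meis1 and Prep1 (MP), Meis1 (M) or Prep1 (P), or as infected with an empty vector (EV), and the remaining line was Prep1 wild type (WT). The growth description names hypomorphic embryos for all lines, whereas the genotype label of WT says wild type. No vector is named for WT, so genotype, line of origin and infection cannot be told apart wherever WT is compared. Each group held 1 library, so there is no replicate error and no p-value, and each difference below is between libraries.

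Ephrins are themselves membrane-bound, so the pair signals at cell contacts, and signals run into both the receptor-bearing and the ligand-bearing cell. EphA receptors mainly bind ephrin-A ligands, which hold to the membrane by a lipid (GPI) anchor, and EphB receptors mainly bind ephrin-B ligands, which cross the membrane. EphA4 is a known exception that binds both classes. In embryos these contacts sort cells at tissue boundaries, steer axons and shape vessels, and in mesenchyme they help set the borders of limb and skull elements.

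The values are FPKM (fragments per kilobase of transcript per unit of mapped fragments) as estimated by the authors, and whole libraries differed widely. The upper quartile was taken over the single-gene loci at 1 FPKM or more in any library, which were 22338 of 22894. It was 9.63 FPKM in MP, 429 in M, 11.6 in P, 157 in EV and 12.2 in WT. Each library was therefore scaled so that this quartile became 10, and levels below are in these scaled units. A log2 ratio below is the log2 of (level + 1) over (level + 1), which understates differences of genes with low levels. The upper range was compressed: the 99th percentile was between 1.73 and 2.01 times the upper quartile in the 5 libraries. Read depth is unknown. Meis1 stood at 15.4 in MP and 16.8 in M, against 8.86 in P, 8.32 in EV and 12.4 in WT. Pknox1 stood at 0.569 in MP, 3.25 in M, 0.554 in P and 2.16 in EV, against 11.0 in WT. The low Pknox1 goes against the labels of the libraries labelled MP and P. All 10 fibroblast markers searched stood at 1 or more in each library. Their sum was 142 in MP, 136 in M, 126 in P and 146 in EV, against 121 in WT, but single markers went both ways. Pdgfra stood at 7.72 in MP, 6.54 in M, 5.78 in P and 2.56 in EV, against 11.8 in WT. Col3a1 stood at 12.3 in MP, 11.6 in M, 12.0 in P and 12.5 in EV, against 5.46 in WT. The 6 endothelial markers, which matter because EphB4 and ephrin-B2 are known from vessels, were below 1 in each library and summed to between 0.80 and 2.24, with Emcn and Cldn5 at 0 in some. Of the 6 epithelial markers 5 were below 1 throughout. Their sum was 0.801 in MP, 1.16 in M, 1.48 in P, 2.90 in EV and 0.432 in WT, and Epcam and Krt18 were at 0 in some libraries. Of 6 neural markers Pax6, Gfap and Olig2 stayed below 1, with Olig2 at 0 in some libraries, but Tubb3, Nes and Map2 stood at 5 or more in each library. The neural sum was 35.2 in MP, 34.3 in M, 32.9 in P and 40.3 in EV, against 39.8 in WT. Of the blood markers, Ptprc, Itgam and Cd3e were below 1 in each library, with Cd3e at 0 in MP and P. Csf1r stood at 3.71 in MP, 3.63 in M, 3.54 in P and 1.89 in EV, against 1.17 in WT. In bulk RNA fewer cells of a type and less RNA per cell cannot be told apart, and the part of these markers in the Eph values was not tested.

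Epha3 and Epha4, both EphA receptors, and Ephb3 were the members at least 2-fold apart between the hypomorphic lines and WT. Epha3 and Ephb3 were lower in the hypomorphic lines, while Epha4 was higher there. The other 7 members differed less than 2-fold in each of these comparisons. Among the hypomorphic lines themselves none of the 9 members kept was 2-fold apart in M, P or MP against EV, or in MP against M or P. A gene was kept in a comparison at 1 scaled unit or more in 1 of its 2 libraries, and Epha3 missed that level in all 4 hypomorphic lines.

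**Figure D1:**
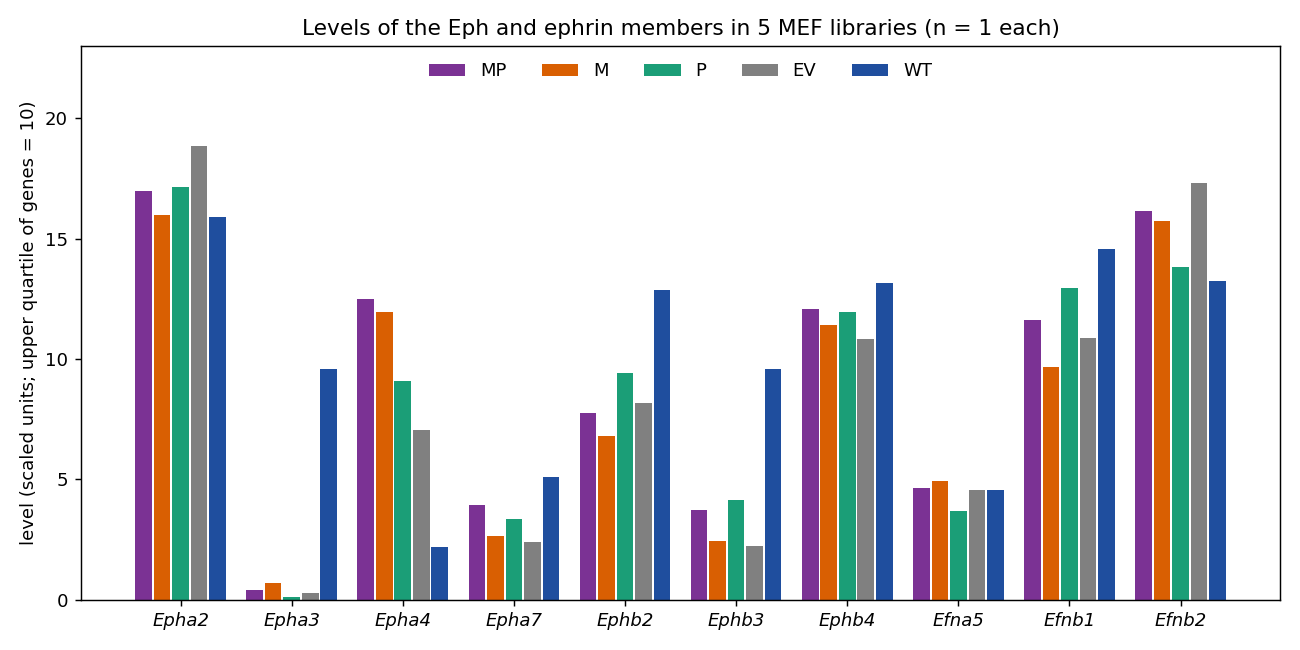
Level in scaled units (vertical axis) of the 10 members in the libraries MP, M, P, EV and WT, 1 bar per library and n = 1 each. Epha3 stands out by its WT bar of 9.59 and Epha4 by its WT bar of 2.20, while Epha2 and Efnb2 are tall in each library.

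Epha3 encodes a receptor that binds ephrin-A5 with high affinity and is known from mesenchyme, heart cushions and axon guidance. It stood at 0.400 scaled units in MP, 0.707 in M, 0.109 in P and 0.261 in EV, against 9.59 in WT. The hypomorphic libraries were all close to the bottom of the scale and WT was near the upper quartile, with no overlap. These levels were 4.17% of WT in MP, 7.37% in M, 1.13% in P and 2.72% in EV. The log2 ratio over WT was -2.92 in MP, -2.63 in M, -3.26 in P and -3.07 in EV. As deposited, Epha3 stood at 0.385 FPKM in MP, 30.3 in M, 0.126 in P, 4.10 in EV and 11.7 in WT, so without scaling the M value lies above that of WT. By rank among the 20909 symbols at 1 FPKM or more in any library, a measure that no scaling changes, Epha3 stood at percentile 45.8 in MP, 46.0 in M, 37.7 in P and 18.5 in EV, against 71.3 in WT. At such low levels the percentile also depends on how many symbols are listed at 0. Over all symbols that share was 27.5% in MP, 9.37% in M, 24.6% in P and 2.18% in EV. P stood above EV by rank but below it in level. In the authors' deposited table of WT and EV, Epha3 was 1 of 11 single-gene loci called with the lower value in EV (4.58 FPKM in EV against 11.7 in WT, q = 0.00382 in their test of 1 library against 1). That table gives log2 1.35 as WT over EV.

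Ephb3 encodes an EphB receptor that binds ephrin-B ligands and is known for placing cells along the intestinal crypt together with Ephb2. It stood at 3.73 scaled units in MP, 2.45 in M, 4.15 in P and 2.24 in EV, against 9.60 in WT. WT was above the 4 hypomorphic lines, and MP and P were above M and EV. The log2 ratio over WT was -1.16 in MP, -1.62 in M, -1.04 in P and -1.71 in EV, the P value being close to the 2-fold bound. Its percentile by rank was 57.7 in MP, 54.2 in M, 57.5 in P and 53.5 in EV, against 71.4 in WT. On values as deposited Ephb3 was higher in EV and M than in WT (35.2 and 105 FPKM against 11.7). With libraries scaled to their median instead, the ratio over WT was -0.80 in P and -0.57 in MP, inside 2-fold. Median scaling moved genes in general upward over WT, taken over those at 5 or more in both libraries. Their median log2 ratio was 0.83 in MP, 0.48 in M, 0.42 in P and 0.41 in EV.

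Epha4 encodes a receptor that responds to both ephrin classes, with known roles in limb mesenchyme and in the wiring of motor axons. It stood at 12.5 scaled units in MP, 12.0 in M, 9.09 in P and 7.03 in EV, against 2.20 in WT. WT was the lowest library, and the lines with added Meis1 per their labels, MP and M, were both above P and EV. The log2 ratio over WT was 2.07 in MP, 2.02 in M, 1.66 in P and 1.33 in EV. Over EV, it was 0.75 in MP, 0.69 in M and 0.33 in P, each below 2-fold. MP and M were both above P and EV at 3 of the 10 members (Epha3, Epha4 and Efna5), beside 19.6% of the 11866 genes at 1 or more in any library, and both below at 2 (Epha2 and Ephb2), beside 19.3%. With median scaling the same 3 members were both above, beside 37.3%, and 0 were both below, beside 4.57%. Epha3 reached 1 scaled unit only in WT, which is not part of this pattern. Its place in the count rests on values near the floor (0.400 in MP, 0.707 in M, 0.109 in P and 0.261 in EV). Percentiles by rank were 82.0 in MP, 80.4 in M, 69.9 in P and 65.0 in EV, against 51.1 in WT. As deposited it stood at 12.0 FPKM in MP, 512 in M, 10.5 in P and 111 in EV, against 2.67 in WT, so WT was lowest without scaling too.

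In each of the 4 comparisons with WT, 1 of the 10 members was thus at least 2-fold higher and 2 lower in the hypomorphic line. Over all genes kept, the share at least 2-fold higher was 1.68% in MP, 2.84% in M, 1.91% in P and 3.20% in EV. The share at least 2-fold lower was 8.49% in MP, 7.62% in M, 6.40% in P and 6.31% in EV. The members were chosen with these contrasts in view, and nothing is read from the difference between the counts and these shares. The 4 comparisons share the WT library, so their likeness is not independent. The median log2 ratio of the 10 members over WT was -0.21 in MP, -0.37 in M, -0.20 in P and -0.33 in EV, beside 0.04, 0.06, 0.04 and 0.07 over all genes kept.

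**Figure D2:**
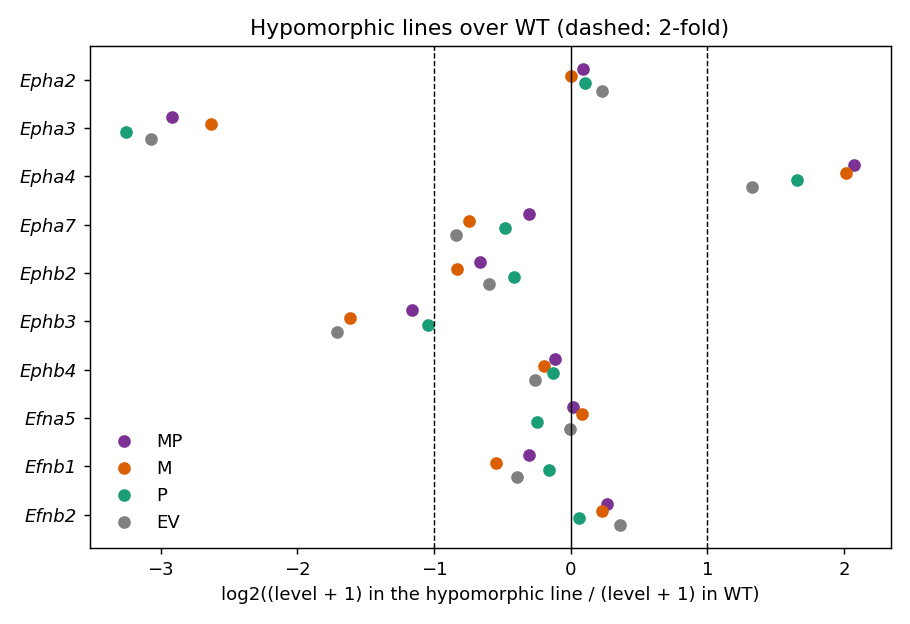
Log2 ratio of each hypomorphic line over WT (horizontal axis) for the 10 members, 1 point per line and n = 1 each, with the 2-fold bounds dashed. Epha3 lies between -3.26 and -2.63, Ephb3 between -1.71 and -1.04 and Epha4 between 1.33 and 2.07, while the points of the other 7 members stay inside the bounds.

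Epha2 was the member with the highest level in each library. The receptor it encodes is known to be abundant in many transformed and migrating cells. It stood at 17.0 scaled units in MP, 16.0 in M, 17.2 in P and 18.8 in EV, against 15.9 in WT. The M and WT values nearly coincide on this scale, and the whole span over the 5 libraries was 0.23 on the log2 scale. With median scaling they did not coincide, and the log2 ratio over WT was 0.87 in MP, 0.40 in M, 0.49 in P and 0.58 in EV. The percentile of Epha2 by rank lay between 95.4 and 98.5.

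Epha7, an EphA receptor of limb and brain, stood at 3.91 in MP, 2.64 in M, 3.37 in P and 2.40 in EV, against 5.08 in WT. WT was highest, except that with median scaling MP lay above it (0.39), and MP and P were above M and EV. The log2 ratio over WT ran from -0.84 in EV to -0.31 in MP. By rank the libraries differed little, at percentile 58.1 in MP, 54.7 in M, 55.9 in P, 53.9 in EV and 57.0 in WT, and on that measure MP lay above WT.

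Ephb2, a receptor of axon guidance and of intestinal crypts, stood at 7.77 in MP, 6.80 in M, 9.42 in P and 8.17 in EV, against 12.9 in WT. The log2 ratio over WT was -0.66 in MP, -0.83 in M, -0.41 in P and -0.60 in EV, and with median scaling 0.05 in MP. Although none of these reached 2-fold, the percentile by rank was 66.9 in MP, 64.1 in M, 71.1 in P and 68.0 in EV, against 92.4 in WT. Ephb4, which with ephrin-B2 marks veins against arteries, stood at 12.1 in MP, 11.4 in M, 12.0 in P and 10.8 in EV, against 13.2 in WT. With median scaling the 4 hypomorphic lines all lay above WT at Ephb4, by 0.06 in EV to 0.65 in MP on the log2 scale. The median over all genes at 5 or more in both libraries was then 0.41 in EV and 0.83 in MP. Its percentiles were 80.4 in MP, 78.3 in M, 83.5 in P and 76.0 in EV, against 93.5 in WT. Near the compressed top of the scale a small difference in level thus spans many ranks.

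The 3 ligands varied less than Epha3, Epha4 and Ephb3. Efnb1, an ephrin-B ligand on the X chromosome that is known for boundaries in the developing skull, stood at 11.6 in MP, 9.66 in M, 12.9 in P and 10.9 in EV, against 14.6 in WT. WT was highest on this scale, with log2 ratios over WT between -0.55 in M and -0.16 in P, but with median scaling MP (0.45) and P (0.21) lay above WT. Efnb2, the arterial partner of EphB4, stood at 16.1 in MP, 15.7 in M, 13.8 in P and 17.3 in EV, against 13.2 in WT. WT was lowest with P just above it, and the log2 ratios over WT lay between 0.06 in P and 0.36 in EV. Efna5, a GPI-anchored ligand of EphA3 and other EphA receptors, stood at 4.63 in MP, 4.91 in M, 3.69 in P and 4.57 in EV, against 4.57 in WT. The EV and WT levels were nearly equal and P was lowest, but with median scaling WT was lowest, with log2 ratios over it between 0.07 in P and 0.77 in MP.

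Within libraries, the order of the members changed mainly through 3 of them. Epha2 was first in each library. In MP and M the order was Epha2, Efnb2, Epha4, Ephb4, Efnb1, Ephb2, Efna5, Epha7, Ephb3 and Epha3. In P and EV Efnb1 took the third place and Epha4 the sixth, below Ephb2. Epha3 was last in the 4 hypomorphic lines. In WT Epha4 was last, and Ephb3 and Epha3 stood together at 9.60 and 9.59 in the sixth and the seventh place. With 1 library a group no spread is known, so neighbours in these orders cannot be said to differ.

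Lines that differ by the labelled factor were then set side by side. In M against EV, the comparison of added Meis1, the members' log2 ratios ran from -0.23 for Epha2 and Ephb2 to 0.69 for Epha4, with a median of 0.07 over 9 members kept beside -0.01 over all genes kept. In the library labelled P against EV they ran from -0.30 for Efnb2 to 0.67 for Ephb3 (median 0.18 beside -0.05). In the library labelled MP against EV they ran from -0.14 for Epha2 to 0.75 for Epha4 (median 0.09 beside -0.04), with Ephb3 at 0.55 and Epha7 at 0.53. In MP against M they ran from -0.07 for Efna5 to 0.46 for Ephb3, and in MP against P from -0.25 for Ephb2 to 0.42 for Epha4. The background of genes at least 2-fold higher or lower was 0.296% and 0.628% in M against EV, 0.654% and 1.85% in P against EV, and 0.208% and 2.05% in MP against EV. It was 0.23% and 1.28% in MP against M and 0.251% and 0.761% in MP against P, so with 9 members kept a count of 0 lies close to these shares. The 3 comparisons with EV share that library. Ephb3, Epha7, Ephb4 and Efnb1 were higher in both MP and P than in both M and EV, a pattern found at 11.9% of all genes at 1 or more in any library, and 0 members were lower in both, beside 24.5%. These shares turned over with median scaling. Then 5 members, with Ephb2 added, were higher in both, beside 26.5%, and 0 lower in both, beside 6.62%. M and EV are also the libraries with the far higher deposited values, so the Prep1 label and that property of the libraries cannot be told apart.

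Of the authors' own calls, few bear on single members. In the authors' deposited table of M and EV, 8 of the 10 members had the status FAIL, and of the 2 tested Efnb1 was called higher in M, where 18% of tested single-gene loci were so called and 0.0539% were called lower. In the authors' deposited table of MP and EV, and in that of P and EV, 9 members were tested and all 9 called lower than in EV, where 99.2% and 98.7% of tested loci were. Higher calls made up 0.0105% and 0.00996% of the loci tested in the authors' deposited table of MP and in that of P, and Epha3 was not tested in either. In the authors' deposited table of EV and WT, 9 members were called higher in EV, with 96.5% of tested loci, and Epha3 lower, with 0.104% of them.

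The family was then completed with the 12 other Eph and ephrin genes, of which 7 reached 1 scaled unit in any library. Ephb6, a receptor whose kinase is inactive, stood at 0.303 in MP, 0.425 in M, 0.193 in P and 0.554 in EV, against 4.65 in WT, with log2 ratios over WT between -2.24 in P and -1.86 in EV. Efna2, a GPI-anchored ligand, stood at 0.476 in MP, 0.583 in M, 0.963 in P and 0.691 in EV, against 3.36 in WT. Epha1, the founding member of the receptor family, stood at 0.713 in MP, 0.904 in M, 1.29 in P and 0.750 in EV, against 3.17 in WT. At these genes, as at Epha3 and Ephb3, WT lay above the 4 hypomorphic lines without overlap. Ephb6 and Efna2 were at least 2-fold lower in each hypomorphic line, and Epha1 in MP, M and EV but not in P (-0.87). Efna4, a ligand, stood at 5.80 in MP, 4.88 in M, 7.68 in P and 5.55 in EV, against 8.41 in WT. Efna1, a ligand of EphA2, went the other way, at 11.4 in MP, 8.62 in M, 11.5 in P and 9.50 in EV, against 7.27 in WT. Efna3 lay between 0.745 in M and 2.45 in P, and Efnb3 between 0.403 in MP and 1.25 in P. The 4 hypomorphic lines were all below WT at 6 of the 10 members and 4 of these 7 genes, beside 30.8% of all genes at 1 or more in any library. They were all above WT at 3 of the 10 members and 1 of the 7, beside 41.3%. With libraries scaled to their median these counts moved to 2 members (Epha3 and Ephb3) and 3 of the 7 genes all below WT, beside 11.9% of all genes, and to 5 and 2 all above, beside 68.9%.

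The 5 genes that stayed below 1, Epha5, Epha6, Epha8, Epha10 and Ephb1, are receptors known mainly from the nervous system. In EV they stood between 0.121 and 0.485 and in M between 0.00933 and 0.161. In WT and P, Epha5, Epha6 and Ephb1 were listed at 0, and in MP Epha5 and Epha6 were. Over all symbols, 2.18% were listed at 0 in EV and 9.37% in M, against 27.5% in MP, 24.6% in P and 22.0% in WT. Epha3 and Ephb6 were below 1 also in EV and M, the libraries where fewer genes were at 0. Read depth is unknown, so these shares do not tell how well low levels were measured. In the authors' deposited tables Ephb6 had the status FAIL beside EV in MP, M, P and WT, and Epha3 had it in M.

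**Figure D3:**
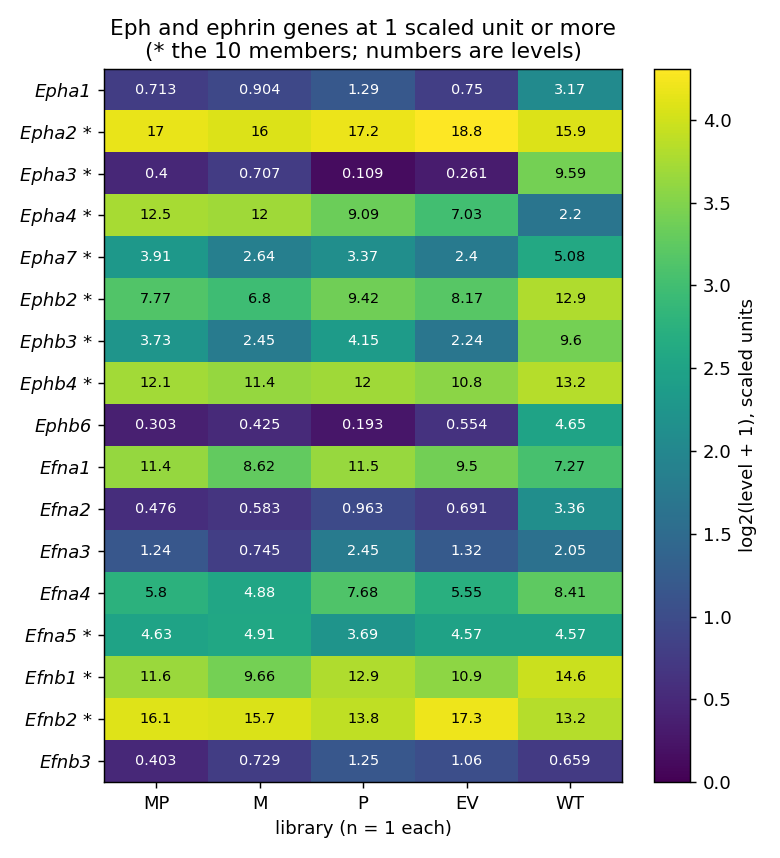
Levels in scaled units (numbers; colour is log2(level + 1)) of the 17 Eph and ephrin genes at 1 or more in any library, by library (columns MP, M, P, EV and WT, n = 1 each). The WT column is brighter than the others at Epha3, Ephb3, Ephb6, Efna2 and Epha1, and darker at Epha4.

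Summed by class, the EphA receptors differed more in composition than in total on the upper-quartile scale. The 9 EphA receptor genes summed to 34.6 scaled units in MP, 32.4 in M, 31.1 in P and 30.2 in EV, against 36.1 in WT. The totals depend on the scaling, and with median scaling genes in general (5 or more in both libraries) lay higher over WT. Their median log2 ratio was 0.83 in MP, 0.48 in M, 0.42 in P and 0.41 in EV. With median scaling the EphA sum was 164.5% of that of WT in MP, 118.8% in M, 112.6% in P and 106.3% in EV. Epha3 made up 1.16% of that sum in MP, 2.18% in M, 0.349% in P and 0.862% in EV, against 26.6% in WT. Epha4 made up 36.1% in MP, 36.9% in M, 29.2% in P and 23.3% in EV, against 6.09% in WT. By these shares of scaled values, the EphA set was mainly Epha2 and Epha4 in the hypomorphic lines, and mainly Epha2 and Epha3 in WT. The 5 EphB receptor genes summed to 23.9 in MP, 21.2 in M, 25.7 in P and 22.1 in EV, against 40.3 in WT. Ephb2, Ephb3, Ephb4 and Ephb6 were all highest in WT on this scale, but with median scaling Ephb4 was above WT in all 4 hypomorphic lines and Ephb2 in MP. The EphB sum was 59.3% of that of WT in MP, 52.7% in M, 63.8% in P and 54.8% in EV, and with median scaling 102%, 69.8%, 83.4% and 69.6%. The 3 ephrin-B ligands summed to 28.2 in MP, 26.1 in M, 28.0 in P and 29.3 in EV, against 28.5 in WT. With median scaling their sum was 169.9% of that of WT in MP, 121.4% in M, 128.6% in P and 130.4% in EV. The 5 ephrin-A ligands summed to 23.6 in MP, 19.7 in M, 26.3 in P and 21.6 in EV, against 25.7 in WT. With median scaling the ephrin-A sum was 157.7% of that of WT in MP, 101.8% in M, 133.9% in P and 107% in EV. Levels are per kilobase and were summed as they stand. High values are compressed, so these sums and shares describe the scaled values and need not follow amounts of transcript.

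**Figure D4:**
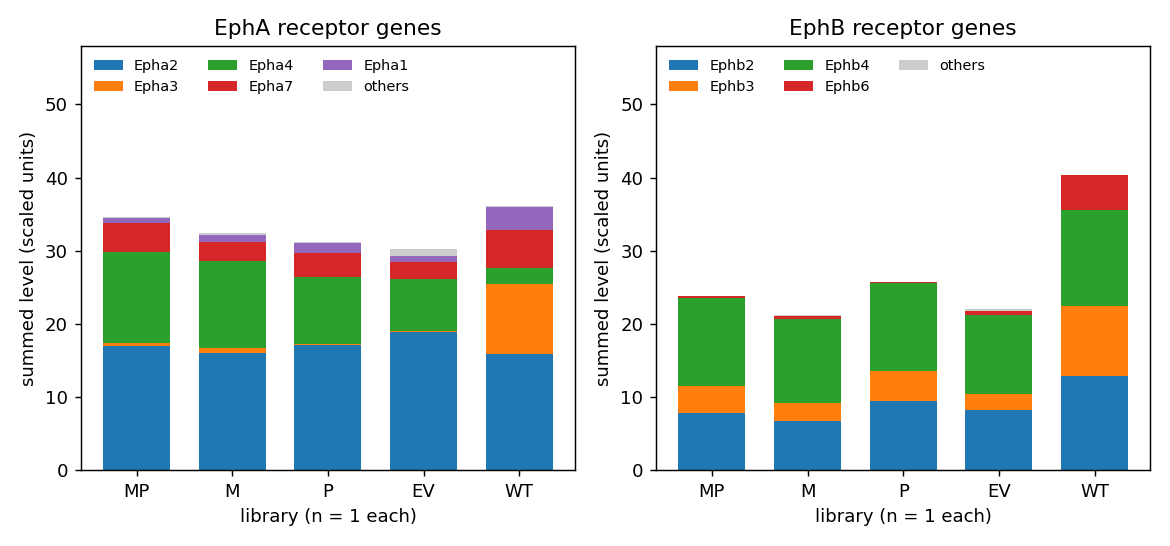
Summed level in scaled units (vertical axis) of the EphA and the EphB receptor genes in MP, M, P, EV and WT, stacked by gene, n = 1 each. The EphA totals lie between 30.2 and 36.1 with Epha3 visible in WT, and with median scaling the EphA total of WT is the lowest. The EphB total is 21.2 to 25.7 in the hypomorphic lines against 40.3 in WT. With median scaling the EphB total of MP is 102% of WT. The median log2 ratio of MP over WT for genes at 5 or more in both is then 0.83.

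Genes that act downstream of Eph receptors or bind ephrin tails were read from a list of 35 partners, of which 34 had a single-gene locus. Of the 32 kept in EV against WT, 3 were at least 2-fold lower and 0 higher in EV, beside 6.31% and 3.20% of all genes kept, so these counts are near the background. The same 3 genes were lower in M and in P, and 2 of them in MP. Tiam1, an activator of the GTPase Rac, stood at 5.30 in MP, 2.79 in M, 4.72 in P and 3.50 in EV, against 13.5 in WT. Ptpn13, a phosphatase that binds the tail of ephrin-B ligands, stood at 5.23 in MP, 3.49 in M, 4.37 in P and 3.14 in EV, against 11.0 in WT, and its log2 ratio of -0.95 in MP missed 2-fold. Chn2, a Rac inhibitor of the chimaerin family, stood at 0.0601 in MP, 0.114 in M, 0.143 in P and 0.490 in EV, against 2.07 in WT. The median log2 ratio of the partners over WT was 0.14 in MP, 0.17 in M, 0.07 in P and 0.15 in EV, beside 0.04, 0.06, 0.04 and 0.07 over all genes. Among the hypomorphic lines 0 partners were 2-fold apart in M, P or MP against EV, or in MP against M or P. The widely expressed kinases Src, Fyn and Abl1 stood between 12.9 and 17.2 in each library.

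The genes closest to the 3 varying members in pattern were found by the Euclidean distance of their log2(level + 1) values over the 5 libraries, among 9039 named genes at 5 or more in any library. Closest to Epha3 were Svep1, an extracellular matrix protein (distance 0.14), the zinc finger gene Bnc1 (0.17) and Peli2, a ubiquitin ligase of immune signalling (0.45). Svep1 stood at 0.417 in MP, 0.640 in M, 0.0845 in P and 0.228 in EV, against 10.5 in WT. Closest to Epha4 were the protease gene Ctsc (0.46), the Wnt transcription factor gene Lef1 (0.71) and Lhpp (0.72). Ctsc stood at 9.26 in MP, 11.4 in M, 9.34 in P and 8.18 in EV, against 1.93 in WT. Closest to Ephb3 were the sialyltransferase gene St6gal1 (0.27), Mtss1l (0.28) and Fam117a (0.28). Each distance rests on 5 libraries of which WT stands apart, so it mainly records the contrast with WT.

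The sequences just upstream of the 3 varying members, and of Efnb2 for comparison, are shown because Meis1 and Prep1 bind DNA and the series title names AP-1 sites. They are RefSeq promoters on GRCm38.p6, printed 5′ to 3′ on the strand of the gene, up to 250 bases before the start. Capitals mark any of TGANTCA (AP-1), TGACAG (a TALE half-site), TGACGTCA (a cAMP response element, CRE), CCAAT and GGGCGG (a GC box), on either strand. The motifs were chosen after the members.
Epha3, chr16:63864176-63864425, minus strand: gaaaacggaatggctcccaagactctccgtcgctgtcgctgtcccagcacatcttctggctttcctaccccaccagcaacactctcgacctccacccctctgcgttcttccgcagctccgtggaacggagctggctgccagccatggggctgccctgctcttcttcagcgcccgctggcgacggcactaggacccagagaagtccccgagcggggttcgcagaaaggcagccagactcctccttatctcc
Epha4, chr1:77515089-77515338, minus strand: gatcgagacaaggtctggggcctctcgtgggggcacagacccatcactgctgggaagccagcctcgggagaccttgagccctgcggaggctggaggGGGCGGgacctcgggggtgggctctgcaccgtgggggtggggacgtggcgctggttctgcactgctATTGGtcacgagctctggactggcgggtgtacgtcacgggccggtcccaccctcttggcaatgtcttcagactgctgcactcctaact
Ephb3, chr16:21204545-21204754, plus strand: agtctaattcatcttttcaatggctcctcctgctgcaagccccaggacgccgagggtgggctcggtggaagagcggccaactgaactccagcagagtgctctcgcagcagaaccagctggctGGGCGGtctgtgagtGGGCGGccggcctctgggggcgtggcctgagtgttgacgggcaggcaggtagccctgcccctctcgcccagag
Efnb2, chr8:8661243-8661492, minus strand: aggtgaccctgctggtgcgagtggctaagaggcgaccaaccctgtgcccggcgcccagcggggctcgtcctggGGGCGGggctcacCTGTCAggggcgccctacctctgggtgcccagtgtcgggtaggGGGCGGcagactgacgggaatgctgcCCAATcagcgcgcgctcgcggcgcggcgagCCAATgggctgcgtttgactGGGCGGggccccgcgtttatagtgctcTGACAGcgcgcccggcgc

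The 10 members had 11 windows, since Epha7 has 2 annotated starts. None of these held TGANTCA, which 6.75% of all 32841 windows of 250 bases held; each window was searched over its full 250 bases, also where a shorter stretch is printed. TGACAG was in 1 of the 11, that of Efnb2, where it occurred 2 times, beside 15.9% of all windows. TGACGTCA was in the window of Epha2 alone among the members, beside 1.55% of all windows. CCAAT was in 7 of the 11 windows beside 33.9%, and GGGCGG in 8 beside 32.7%. Epha3 held none of these letters, Epha4 a CCAAT and a GGGCGG, and Ephb3 a pair of GGGCGG. The window printed for Ephb3 ends 41 bases before its RefSeq start, at the edge of the first exon in GENCODE. These matches describe letters in short windows and say nothing of binding in these cells.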

How the data were processed

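Total RNA from 5 cultures was sequenced, 1 library each for MP, M, P, EV and WT, grouped by the sample labels. Per the submitters' processing notes TopHat, Cufflinks and Cuffdiff were used with mm9. Versions, annotation and library normalisation are not given in the sources used here. The authors deposited 4 tables of 61082 loci, each setting EV against 1 library, with FPKM, log2 ratio, p-value and q-value columns per the file headers; loci they called had q under 0.05, and what is printed of these columns was copied. FPKM sums over all loci were 152793 in MP, 7500880 in M, 203116 in P, 3313080 in EV and 409089 in WT. EV was taken from the M table on scaled values; EV as deposited beside MP, P and WT was 0.972, 1.10 and 1.12 times that column.

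FPKM of each library was multiplied so that the upper quartile over the 22338 single-gene loci that reached 1 FPKM in a library became 10. A symbol with several loci was read at the locus of highest mean. Log2 ratios used a pseudocount of 1, genes were kept at 1 or more in 1 of the 2 libraries, and a ratio of 1 in size counted as 2-fold. No test was possible with 1 library per group. The scaling was also run on simulated data, which cannot show whether it suits these libraries, because here the result depends on the scaling chosen. Over genes at 5 or more in both libraries, the median log2 ratio of MP over WT was 0.13 with upper-quartile scaling. With median scaling it was 0.83. Members and lists were chosen with earlier results of these data known. Named genes were the members, family genes at 1 or more, 2-fold partners and the 3 nearest patterns of members spanning at least 1 on the log2 scale. The partner Nck1 and the blood marker Cd68 had no single-gene locus and are not analysed here, and 1 other blood marker is not reported here. Overlap of genes, and strand, were left unconsidered. Python 3.11.15, pandas 2.3.3, numpy 2.4.6 and matplotlib 3.10.9 were used.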

Additional observations from a re-analysis of the deposited data

How the results depend on the processing

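No paired analysis was possible because each group holds 1 library, and for the same reason no replicate could be left out. The counts of members 2-fold apart in the 6 comparisons among M, P, MP, WT and EV did not change by more than 1.5 times with no filter, with genes kept at 5 or more, with a pseudocount of 0.1 or with loci summed per symbol. They changed with the scaling. On values as deposited, 10 members were at least 2-fold higher in M than EV, 10 lower in P than EV, 10 lower in MP than EV and 10 lower in MP than M, against 0 in each on scaled values. In EV against WT, 9 were higher and 1 lower in EV, against 1 and 2 on scaled values. With the median in place of the upper quartile, 1 was higher in M than EV, 3 in MP than EV (Epha4, Epha7 and Ephb3) and 1 in MP than P. The 1 member in M against EV and in MP against P was Epha3, which the filter left out on the main scale. Median scaling also raised all levels (the EphA sum of WT was 198, against 36.1), so the fixed filter and pseudocount weighed less. The median log2 ratio of all genes at 5 or more in both libraries was 3.68 for EV over WT and 1.37 for M over EV as deposited, and 0.83 for MP over WT with median scaling, against 0.13, -0.02 and 0.13 on the main scale. Of the member ratios at least 2-fold apart on scaled values, those that changed sign on deposited values were Ephb3 in EV over WT (1.67), and Epha3 and Ephb3 in M over WT (1.44 and 3.22). A further 36 ratios under 2-fold also changed sign on deposited values and 18 with median scaling, among them Ephb4 over WT in all 4 hypomorphic lines. With median scaling Ephb3 over WT was -0.80 in P and -0.57 in MP, below 2-fold, and Efnb2 over WT was 1.06 in MP. With a pseudocount of 0.1 Epha7 in EV over WT was -1.05. The comparisons of M, P and MP with WT, and the libraries set in order with median scaling, were added after seeing the data. Differences between genes near the top of the scale are limited by its compression, and depth is unknown.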
